A study of Homo sapiens with 8 samples.

Results

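The genes described here encode enzymes that switch steroid hormones on or off, together with a pump that exports steroids and the mineralocorticoid receptor. They are HSD11B1, HSD11B2, H6PD, SRD5A1, SRD5A3, HSD17B4, HSD17B11, STS, ABCB1 and NR3C2, taken by gene symbol, and all 10 were found among the 19158 genes with values. The cells were A549, an epithelial line established from a human lung adenocarcinoma, with the genotype label WT, grown in medium with serum. One group of 4 wells was left untreated (NT), and a second group of 4 wells received dexamethasone, a synthetic glucocorticoid, at 1 µM for 48 h. Each library came from 1 well of a single cell line, so the p-values below measure the spread between wells of that line. Replicates were numbered 1, 3, 4 and 5 in both groups, and all 8 libraries carried the same batch label.

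Glucocorticoids act through a nuclear receptor, but the amount of active steroid that reaches it is set inside the cell. The type 1 11β-hydroxysteroid dehydrogenase, encoded by HSD11B1, regenerates active cortisol from inert cortisone in the endoplasmic reticulum, using NADPH that H6PD makes there. The type 2 enzyme, encoded by HSD11B2, runs the opposite step and shields the mineralocorticoid receptor from cortisol. Steroids are also inactivated or redirected by reduction of the A ring, by oxidation at carbon 17, by sulfate removal and by export from the cell.

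Levels are given as FPKM (fragments per kilobase of transcript, scaled to library size), a unit inferred from the values. Comparisons of level between genes depend on the transcript length used for each gene, which is not stated. The levels were scaled further between libraries, by divisors from 0.824 in untreated replicate 5 to 1.09 in untreated replicate 3. The depth, estimated from the steps between low values, was 24980000 to 28650000 fragments per library. The glucocorticoid-induced gene FKBP5 lay at 3.98 to 6.75 scaled FPKM in untreated and 94.1 to 164 in dexamethasone libraries, and TSC22D3 and PER1, also induced by glucocorticoids, were likewise separate between the groups. KRT8 and KRT18, keratins of simple epithelia, were at 741 scaled FPKM or more in every library, whereas EPCAM, an epithelial surface protein, did not exceed 0.704. The other epithelial markers were called in opposite directions, KRT19 going from 128 to 243 down to 42.4 to 69.1 scaled FPKM (limma adjusted p = 0.0014) and CDH1 from 5.95 to 7.89 up to 16.1 to 20.7 (limma adjusted p = 8.15e-05). PTPRC, CD3E, APOA2, ADIPOQ and LEP, markers of leukocytes, liver and fat, were listed at 0 in all 8 libraries. Summed over 4 leukocyte markers the level was 5.32 to 9.13 scaled FPKM untreated and 2.98 to 4.05 after dexamethasone, all of it from CD68 and CD14. The fibroblast and smooth muscle list, mostly ACTA2, summed to 12.9 to 21.5 scaled FPKM untreated and to at most 16.3 after dexamethasone, and within it COL1A1 fell from 1.66 to 2.5 down to 0.267 to 0.422 (limma adjusted p = 5.32e-05), while DCN, below the filter, had 0 in every untreated library and 0.172 to 0.382 in the treated ones. The endothelial, hepatocyte and adipocyte lists each summed to at most 0.18 in any library. The part of these lists in the results was not tested. Both libraries numbered 5 stood apart on the second principal component, at -22.3 and -16.0, where the other libraries lay between -2.9 and 12.8.

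The 3 upstream sequences are shown because they belong to the gene that was listed at 0 without hormone, to the gene that supplies its cofactor, and to a gene that rose and whose window held a C/EBP match. They are RefSeq windows from GRCh38.p14 that run from 250 bases before to 50 bases after a gene's start, written 5′ to 3′ on the gene's strand, with motif matches in capitals. The HSD11B1 window is chr1:209685929-209686228 (plus strand), the H6PD window is chr1:9239597-9239896 (plus strand, a start inside the locus given with the values), and the HSD17B11 window is chr4:87391139-87391438 (minus strand).
HSD11B1: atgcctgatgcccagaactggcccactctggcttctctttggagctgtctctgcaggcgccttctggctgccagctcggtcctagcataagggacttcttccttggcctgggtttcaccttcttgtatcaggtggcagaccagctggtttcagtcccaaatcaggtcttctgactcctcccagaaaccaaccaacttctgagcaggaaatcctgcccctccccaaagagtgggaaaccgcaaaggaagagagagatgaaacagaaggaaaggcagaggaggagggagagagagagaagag
H6PD: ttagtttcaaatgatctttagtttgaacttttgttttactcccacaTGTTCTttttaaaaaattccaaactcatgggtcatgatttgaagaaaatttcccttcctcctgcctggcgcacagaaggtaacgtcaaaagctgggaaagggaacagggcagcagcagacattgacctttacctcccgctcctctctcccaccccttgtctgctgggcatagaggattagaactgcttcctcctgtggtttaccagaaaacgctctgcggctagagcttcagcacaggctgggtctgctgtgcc
HSD17B11: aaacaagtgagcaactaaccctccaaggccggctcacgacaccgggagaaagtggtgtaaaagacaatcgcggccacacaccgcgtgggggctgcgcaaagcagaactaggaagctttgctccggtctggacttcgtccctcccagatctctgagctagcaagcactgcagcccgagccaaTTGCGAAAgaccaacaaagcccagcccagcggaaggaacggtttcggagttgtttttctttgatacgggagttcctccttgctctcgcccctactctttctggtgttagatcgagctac
The motifs searched on both strands were AGAACA, a glucocorticoid receptor half-site, the palindrome in which any 3 bases and its reverse complement follow it, and TTGCNNAA, a C/EBP site. The H6PD window held 1 half-site, read on the opposite strand and placed at -204 from the start, and the HSD17B11 window held TTGCGAAA at -69. No match lay in the HSD11B1 window, which says only that these letters are not in it. Of the 9 genes with a window, 3 (H6PD, STS and ABCB1) had a half-site, 2 (HSD17B11 and STS) a C/EBP match and 0 the palindrome. The number of windows per gene differed: STS has 5 and ABCB1 has 2, and NR3C2 has 4, none of which held a match. Among all 35116 windows of this length, 14.8% held a half-site, 10.5% a C/EBP match and 0.00285% the palindrome. These shares are per window, while the counts for the 9 genes take a match in any window of a gene, so they are not directly comparable.

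The comparison of treated with untreated cells asked how 48 h of dexamethasone changed the transcripts of these genes. Of the 10 genes, 8 had at least 0.5 FPKM in at least 4 libraries and were tested with limma, and 7 rose, 0 fell and 1, SRD5A1, did not pass. A gene was called at a Benjamini-Hochberg adjusted p under 0.05 over all 12161 genes tested, of which 12.4% were called higher and 14.3% lower. After scaling between libraries, the same 7 genes had every dexamethasone library above every untreated library. This held for 14.5% of genes tested, while 31.5% did not overlap in either direction. Before scaling, the HSD17B11 groups overlapped and the STS groups met at 1.34 FPKM. HSD11B1 and HSD11B2 passed the filter only through their treated libraries, so for them a difference followed in part from the filter. The 10 genes were also chosen with earlier results of these data known, so the comparison with all genes is only a description. The median log2 fold change of the 8 tested genes was 0.63, beside 0.01 over all genes tested. These log2 values are on the log2(FPKM + 1) scale, which understates changes of low genes. Only HSD11B1 changed by at least 1 on that scale, which 3.69% of genes tested did as calls in the upward direction.

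**Figure D1:**
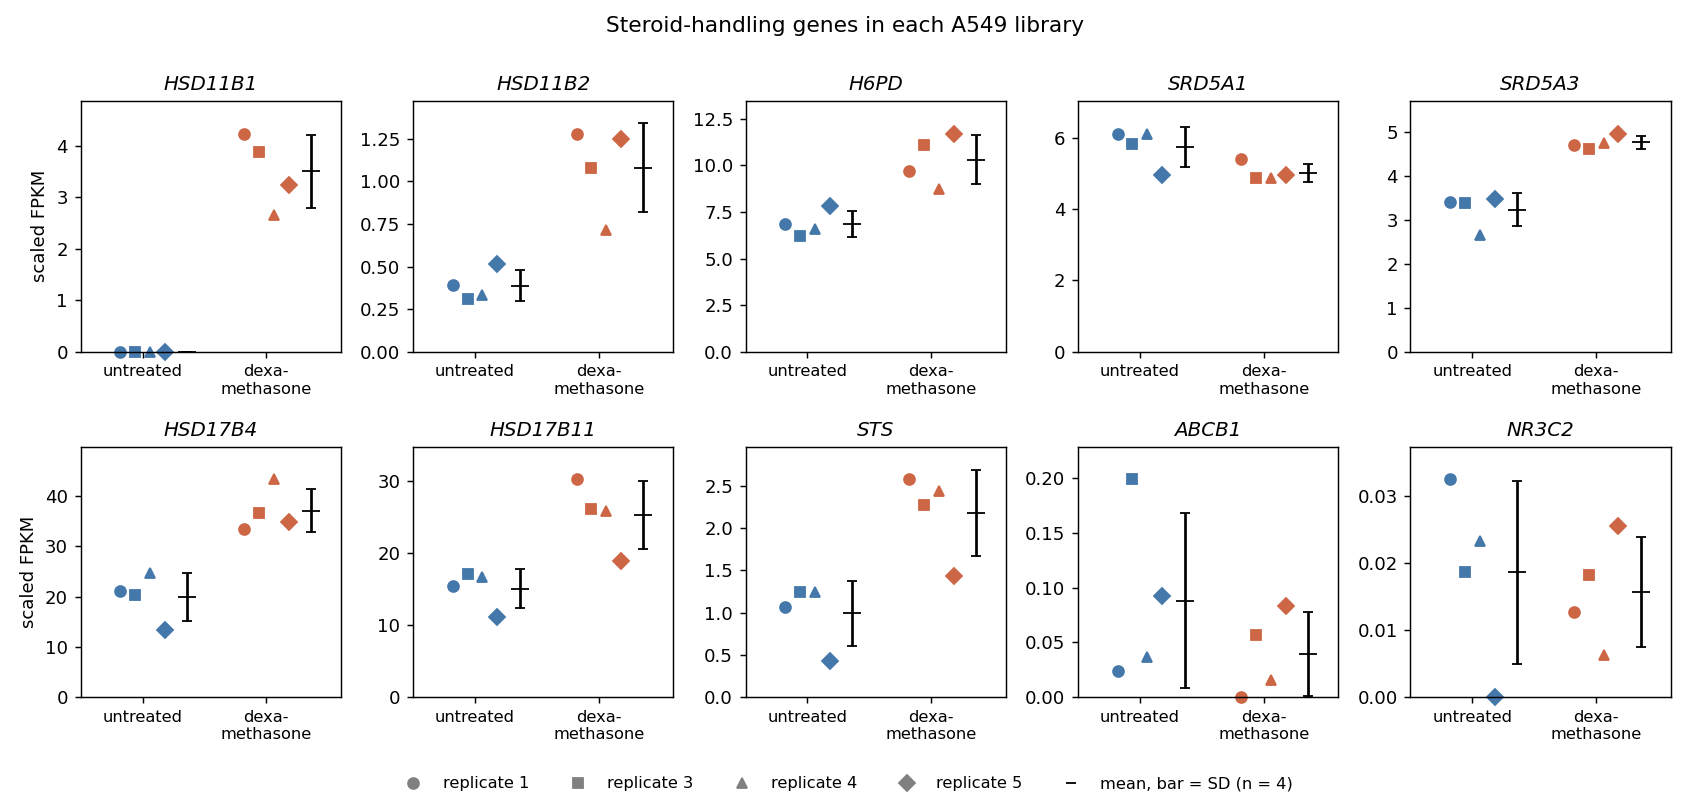
Scaled FPKM (vertical axes from 0, a separate range for each gene) of the 10 genes in each of the 4 untreated (blue) and 4 dexamethasone (orange) libraries, with symbols for the replicate number and bars for mean and SD. HSD11B1 is at 0 in all untreated libraries and at 2.65 to 4.24 after dexamethasone, while SRD5A1, ABCB1 and NR3C2 overlap between groups.

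HSD11B1, the activating 11β enzyme (ENSG00000117594, chromosome 1, 209686178 to 209734950, plus strand, protein coding), was listed at 0 in untreated replicates 1, 3, 4 and 5. After dexamethasone it was at 4.24, 3.89, 2.65 and 3.25 scaled FPKM in replicates 1, 3, 4 and 5. All treated libraries thus had a value above 0 and all untreated libraries were listed at 0, where 1 FPKM of its longest transcript corresponds to about 36.5 fragments in the shallowest library. No fold is given against a group at 0. The fitted log2 difference was 2.16 (adjusted p = 2.81e-06 by limma, SE 0.119), and it depends on the pseudocount, reaching 5.15 with 0.1 in place of 1. HSD11B1 passed the filter only through its treated libraries, and its untreated values have no spread. The limma p-value therefore adds nothing to the values themselves. An antisense transcript, HSD11B1-AS1, overlaps the gene on the other strand, and whether the counting used strand is not stated.

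HSD11B2, the inactivating 11β enzyme (ENSG00000176387, chromosome 16, 67430652 to 67437553, plus strand), was at 0.39, 0.312, 0.33 and 0.517 scaled FPKM in untreated replicates 1, 3, 4 and 5. With dexamethasone the values were 1.28, 1.08, 0.714 and 1.25. The groups did not overlap, and treated replicate 4 was the lowest treated library, as it was for HSD11B1 and H6PD. The gene rose 2.79-fold in mean level, from 0.387 ± 0.0924 to 1.08 ± 0.26 (SD, n = 4 each), with a log2 fold change of 0.58 (adjusted p = 0.00385 by limma, SE 0.109). The filter was applied before scaling, where untreated replicate 5, the highest untreated library, was at 0.426 FPKM. HSD11B2 thus entered this test only through its treated libraries, so the called difference follows in part from the filter. A limma fit without the filter also gave 0.58 (adjusted p = 0.00522). With a pseudocount of 0.1 the log2 fold change was 1.27. An unnamed long noncoding RNA overlaps HSD11B2 on the other strand.

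Transcripts of both opposing enzymes rose. HSD11B1 made up 0% of the summed HSD11B1 and HSD11B2 level in each untreated library. It made up 76.7%, 78.2%, 78.8% and 72.3% in dexamethasone replicates 1, 3, 4 and 5, a mean of 76.5% ± 2.94 (SD, n = 4). With HSD11B1 listed at 0 in all untreated libraries, any treated share above 0 separates the groups, so the exact permutation p of 0.0286 (two-sided), the smallest that 4 against 4 libraries allow, adds nothing to the values themselves. In the treated libraries HSD11B1 was 2.61 to 3.71 times the level of HSD11B2. This ratio within each library needs no scaling between libraries, but it and the treated share depend on the transcript lengths used.

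H6PD, hexose-6-phosphate dehydrogenase, makes NADPH in the lumen of the endoplasmic reticulum (ENSG00000049239, chromosome 1, 9234775 to 9271337, plus strand). Its scaled FPKM was 6.84, 6.19, 6.58 and 7.84 in untreated and 9.71, 11.1, 8.75 and 11.7 in dexamethasone replicates 1, 3, 4 and 5. The highest untreated value, in replicate 5, lay below the lowest treated value, in replicate 4. The mean rose 1.51-fold, with a log2 fold change of 0.52 (adjusted p = 0.016 by limma, SE 0.132). The call was lost without dexamethasone replicate 3, at a log2 fold change of 0.48 and an adjusted p of 0.0584. Before treatment H6PD was at 6.19 scaled FPKM or more, while HSD11B1 was listed at 0. After treatment H6PD was still 2.29 to 3.6 times the level of HSD11B1 in the same library.

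**Figure D2:**
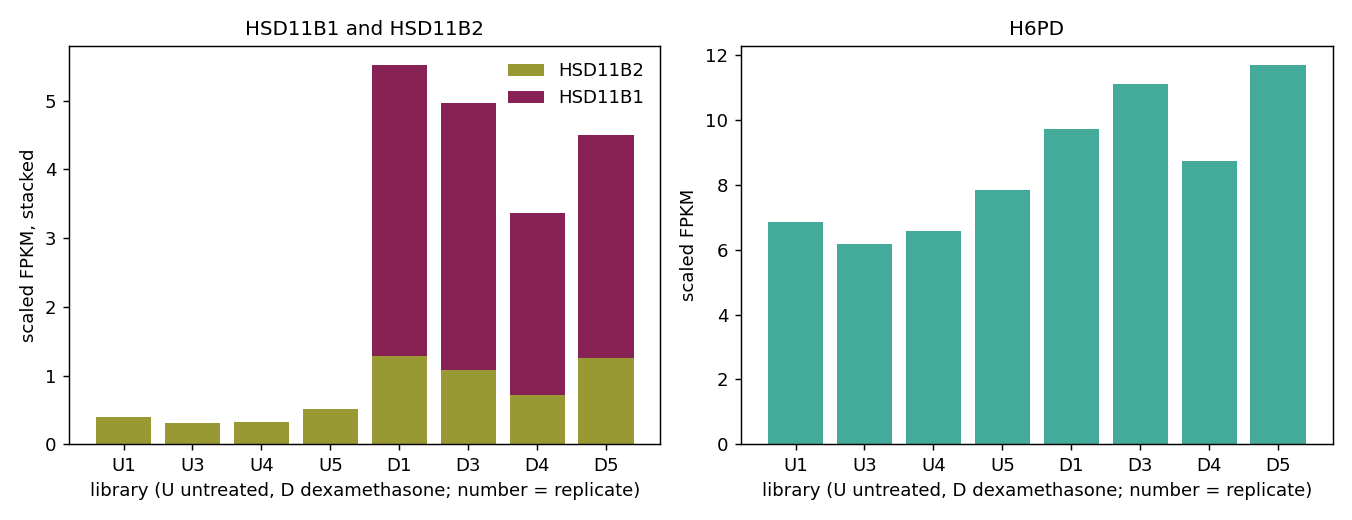
Stacked scaled FPKM of HSD11B2 and HSD11B1 (left) and scaled FPKM of H6PD (right) in the 4 untreated (U) and 4 dexamethasone (D) libraries, labelled by replicate number. Untreated bars of the pair hold HSD11B2 alone, treated bars are 72.3% to 78.8% HSD11B1, and H6PD is above 0 in all 8 libraries.

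HSD17B4 and HSD17B11 had the highest levels of the 10 genes in both groups. HSD17B4 encodes the peroxisomal multifunctional enzyme that oxidises estradiol and also acts in the β-oxidation of very long chain fatty acids (ENSG00000133835, chromosome 5, 119452443 to 119637199, plus strand). It was at 21.0, 20.4, 24.7 and 13.3 scaled FPKM in untreated replicates 1, 3, 4 and 5, and at 33.5, 36.6, 43.3 and 34.9 in the treated ones. Untreated replicate 5 was the low library, and all treated values lay above all untreated ones. The level rose 1.87-fold, from 19.8 ± 4.76 to 37.1 ± 4.31 (SD, n = 4 each), with a log2 fold change of 0.90 (adjusted p = 0.00632 by limma, SE 0.185). With each library's trend on gene GC content removed, the log2 fold change was 0.55 and the gene was still called (adjusted p = 0.00794). The longest HSD17B4 transcript has a GC content of 36.4%, the lowest of the 10 genes. Removing the GC trend moved other genes in both directions. HSD11B2 went up from 0.58 to 0.85 and H6PD from 0.52 to 0.71, while HSD11B1 went down from 2.16 to 2.0 and STS from 0.68 to 0.61. All of these were still called.

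HSD17B11 encodes a dehydrogenase of lipid droplets and the endoplasmic reticulum that acts on 17β-hydroxy androgens (ENSG00000198189, chromosome 4, 87336610 to 87391386, minus strand). Its values were 15.5, 17.1, 16.7 and 11.1 scaled FPKM in untreated replicates 1, 3, 4 and 5 and 30.3, 26.2, 25.9 and 18.9 after dexamethasone. Replicate 5 was lowest in both groups, and its treated value was only a little above the highest untreated one. Before scaling the groups overlapped, with dexamethasone replicate 5 at 17.6 FPKM and untreated replicate 3 at 18.6. HSD17B11 rose 1.68-fold, with a log2 fold change of 0.71 (adjusted p = 0.0178 by limma, SE 0.182). That call was lost without dexamethasone replicate 1, 3 or 4 (log2 fold changes 0.62, 0.68 and 0.69, adjusted p 0.0568, 0.0581 and 0.0525) and with no scaling between libraries (0.71, adjusted p = 0.0634). With the GC trend removed it was 0.40 (adjusted p = 0.00304), and without both libraries numbered 5 it was 0.70 (adjusted p = 0.000575).

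STS, steroid sulfatase, frees estrone and dehydroepiandrosterone from their sulfates (ENSG00000101846, chromosome X, 7219456 to 7354810, plus strand). It was at 1.07, 1.24, 1.24 and 0.426 scaled FPKM in untreated and 2.58, 2.27, 2.44 and 1.44 in dexamethasone replicates 1, 3, 4 and 5. As for HSD17B11, replicate 5 was the low library of each group, and the groups did not overlap after scaling. Before scaling, dexamethasone replicate 5 and untreated replicate 3 were both at 1.34 FPKM. The mean rose 2.2-fold, from 0.993 ± 0.386 to 2.18 ± 0.511 (SD, n = 4 each), with a log2 fold change of 0.68 (adjusted p = 0.0198 by limma, SE 0.179). The call was lost without dexamethasone replicate 1, 3 or 4 (log2 fold changes 0.62, 0.66 and 0.64, adjusted p 0.0613, 0.0584 and 0.0596).

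Of the genes named as 5α-reductases, SRD5A3 rose and SRD5A1 was not called, and the difference between them was not tested. SRD5A3, which takes its name from steroid reduction and also reduces polyprenol to dolichol for N-glycosylation (ENSG00000128039, chromosome 4, 55346109 to 55373096, plus strand), was at 3.41, 3.38, 2.67 and 3.48 scaled FPKM untreated. The treated values were 4.72, 4.63, 4.77 and 4.97, with an SD of 0.14 around a mean of 4.77. SRD5A3 rose 1.48-fold, with a log2 fold change of 0.45 (adjusted p = 0.0169 by limma, SE 0.115), the smallest of the 7 rises. It was no longer called with the GC trend removed, at 0.31 (adjusted p = 0.11), or without dexamethasone replicate 4, at 0.45 (adjusted p = 0.0516). Another annotated gene overlaps SRD5A3 on the same strand, as FAM170A does HSD17B4 and a long noncoding RNA does HSD17B11, so these 3 values are uncertain as those of single genes.

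SRD5A1, the type 1 5α-reductase that converts testosterone to dihydrotestosterone and also acts on glucocorticoids (ENSG00000145545, chromosome 5, 6633343 to 6674386, plus strand), was the tested gene that did not pass. Its values were 6.11, 5.82, 6.1 and 4.94 scaled FPKM untreated and 5.39, 4.86, 4.86 and 4.95 after dexamethasone. The groups overlapped through untreated replicate 5, which was lower than treated replicates 1 and 5. The log2 fold change was -0.16, with a 95% interval from -0.42 to 0.10 (limma adjusted p = 0.324), so neither a small fall nor a lack of change is shown. With the GC trend removed it was called lower, at -0.33 (adjusted p = 0.0138).

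ABCB1 and NR3C2 were below the filter. ABCB1, the P-glycoprotein pump that exports dexamethasone and cortisol (ENSG00000085563, chromosome 7, 87503633 to 87713323, minus strand), was at 0.024, 0.199, 0.0366 and 0.0925 scaled FPKM untreated and 0, 0.0571, 0.0154 and 0.0837 after dexamethasone. Its highest value, in untreated replicate 3, corresponds to about 28.7 fragments. The groups overlapped (exact permutation p = 0.343, two-sided, n = 4 each). NR3C2, the mineralocorticoid receptor that HSD11B2 guards in kidney and colon (ENSG00000151623, chromosome 4, 148078762 to 148444698, minus strand), was at 0.0325, 0.0186, 0.0233 and 0 scaled FPKM untreated and 0.0127, 0.0182, 0.00624 and 0.0256 after dexamethasone. No library held more than about 5.08 fragments of it, and no difference was detectable at this depth (exact permutation p = 0.743, two-sided, n = 4 each).

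**Figure D3:**
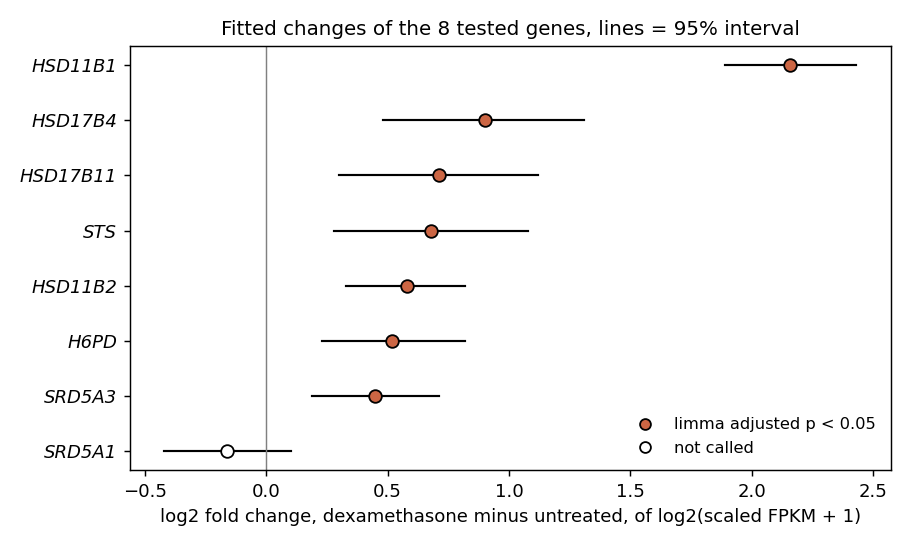
Fitted log2 fold change (horizontal axis, dexamethasone minus untreated, on the log2(scaled FPKM + 1) scale) of the 8 tested genes with 95% intervals, filled where the limma adjusted p is under 0.05. The intervals of 7 genes lie above 0, from 0.45 for SRD5A3 to 2.16 for HSD11B1, and that of SRD5A1 spans 0.

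The order of levels was much the same in both groups apart from HSD11B1. Untreated cells ranked HSD17B4 (19.8 scaled FPKM), HSD17B11 (15.1), H6PD (6.86), SRD5A1 (5.74), SRD5A3 (3.24), STS (0.993), HSD11B2 (0.387), ABCB1 (0.088), NR3C2 (0.0186) and HSD11B1 (0). The ranges of HSD17B4 and HSD17B11 overlapped across libraries, although HSD17B4 was higher in 4 of 4. STS and HSD11B2 also overlapped, with STS higher in 3 of 4 libraries. In treated cells HSD11B1 stood sixth, at 3.51 ± 0.701 (SD, n = 4), between SRD5A3 (4.77) and STS (2.18), and its range was separate from both. SRD5A1 (5.02) and SRD5A3 were not separated after treatment, with SRD5A1 higher in 3 of 4 libraries.

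The pattern of HSD11B1, listed at 0 in every untreated library and above 0 in every treated one, was uncommon among the genes with values. A value of 0 in all untreated libraries was listed for 3121 genes, but 2597 of them were at 0 in all 8 libraries and had no signal to compare. Of the 3121 genes, 39, HSD11B1 included, were above 0 in all 4 dexamethasone libraries. Of the 39 genes, 3 had at least 1 scaled FPKM in every treated library, and HSD11B1 was the second highest by mean. Euclidean distance to HSD11B1 over log2(FPKM + 1) of the 8 libraries was taken among these 39 genes only. The nearest of them were CYP4B1 (distance 0.668), a cytochrome P450 of lung, and ZBTB16 (1.65), a zinc-finger repressor. CYP4B1 was at 2.58, 3.16, 2.43 and 4.19 scaled FPKM in dexamethasone replicates 1, 3, 4 and 5, within the range of HSD11B1 or close to it. TUBA3E (2.72), PHACTR3 (2.86) and GHRHR (2.96) followed at lower levels, at most at 1.12 scaled FPKM. These likenesses describe 8 libraries and were not tested.

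The other genes of steroid handling were read from 8 lists written from general knowledge. Of 75 such genes with values, 45 were tested, and 17 were called, 12 higher and 5 lower, where 26.7% of all genes tested were called in either direction. Their median log2 fold change was 0.21. Without both libraries numbered 5, 27 of these genes were called, and calls over all genes also rose in number, to 45.1% of those tested.

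Among the other 17β-hydroxysteroid dehydrogenases, 0 of 6 tested genes rose and 1 fell. HSD17B14, a cytosolic enzyme, fell from 5.96 ± 1.62 to 2.82 ± 0.419 scaled FPKM (SD, n = 4 each), with a log2 fold change of -0.84 (adjusted p = 0.00563 by limma, SE 0.171). HSD17B10, a mitochondrial member, was the most abundant, at 99.8 and 91.4 scaled FPKM, and was not called.

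Of 6 tested enzymes that reduce keto groups or the A ring, 1 rose and 1 fell. AKR1C2, an aldo-keto reductase that inactivates dihydrotestosterone, was at 591, 537, 573 and 723 scaled FPKM untreated and at 1080, 1050, 1010 and 1060 after dexamethasone. It rose by 0.80 on the log2 scale (adjusted p = 0.00398 by limma, SE 0.153). However, AKR1C genes resemble each other in sequence and could share reads, so this value is uncertain. AKR1C3 was higher still, at 1160 ± 140 and 1520 ± 48.3 scaled FPKM (SD, n = 4 each), and did not pass (adjusted p = 0.0898). CBR3, a carbonyl reductase, fell from 5.98 to 2.47 scaled FPKM (limma adjusted p = 0.00059, SE 0.138).

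Of 13 genes with values for steroid synthesis and its electron donors, 8 were below the filter, among them CYP11A1, which starts steroid synthesis, and CYP11B1 and CYP11B2, which were listed at 0 in all 8 libraries. Of the 5 tested, 2 rose, both electron donors with wider roles: CYB5A, cytochrome b5, went from 7.87 ± 0.739 to 16.4 ± 2.74 scaled FPKM and FDX1, ferredoxin, from 4.31 ± 0.522 to 6.85 ± 0.505 (SD, n = 4 each). Their limma adjusted p-values were 0.000768 and 0.00771.

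In steroid conjugation 3 of 7 tested genes rose and 1 fell. PAPSS1 and PAPSS2, which make the sulfate donor used by sulfotransferases, went from 14.8 to 28.5 and from 13.8 to 28.7 scaled FPKM (log2 fold changes 0.86 and 1.01, limma adjusted p = 0.00821 and 0.000353). SULT1A1, a phenol sulfotransferase, rose from 1.77 to 3.79 scaled FPKM (limma adjusted p = 0.0122). It has near-identical relatives that could share its reads. SULT2B1, which sulfates cholesterol and hydroxysteroids, fell from 7.12 ± 2.67 to 2.26 ± 0.253 scaled FPKM (SD, n = 4 each), with a log2 fold change of -1.27 (limma adjusted p = 0.00158). SUMF1, which activates sulfatases including STS, was at 10.9 and 13.7 scaled FPKM and was not called (adjusted p = 0.111).

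Around H6PD, 1 of 7 genes for glucose 6-phosphate and NADPH supply rose and 0 fell. The riser was IDH1, a cytosolic NADPH-producing dehydrogenase, from 59.7 to 117 scaled FPKM (log2 fold change 0.96, limma adjusted p = 0.00309). SLC37A4, which carries glucose 6-phosphate into the endoplasmic reticulum for H6PD, was at 7.04 ± 1.72 and 5.89 ± 0.839 scaled FPKM (SD, n = 4 each, limma adjusted p = 0.421).

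Among the other pumps of drugs and conjugates levels ranged widely, with ABCB4, like ABCB1, below the filter. Of 7 tested efflux and oxidation genes 3 rose and 0 fell. ABCC3 and ABCC2, exporters of glucuronides and other conjugates, rose from 90.7 to 162 and from 87.8 to 131 scaled FPKM (log2 fold changes 0.83 and 0.59, limma adjusted p = 0.00203 and 0.0202). CYP3A5, an oxidase of steroids including dexamethasone, was at 1.28, 1.07, 1.38 and 0.899 scaled FPKM untreated and at 4.43, 3.32, 3.87 and 1.52 after dexamethasone, with the treated library numbered 5 far below the others. Its log2 fold change was 0.94 (adjusted p = 0.0125 by limma, SE 0.223).

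Among other receptors, 0 of 4 tested genes rose and 1 fell: VDR, the vitamin D receptor, from 2.26 to 0.831 scaled FPKM (log2 fold change -0.84, limma adjusted p = 0.00125). PGR, the progesterone receptor, was listed at 0 in all 8 libraries. The C/EBP factors, known to act at the HSD11B1 promoter in other cells, were split. CEBPB rose from 52.1 ± 11.1 to 155 ± 23.3 and CEBPD from 9.8 ± 2.77 to 21.8 ± 3.71 scaled FPKM, and CEBPA fell from 6.8 ± 1.9 to 3.56 ± 0.917 (SD, n = 4 each, limma adjusted p = 0.000189, 0.00239 and 0.0179).

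**Figure D4:**
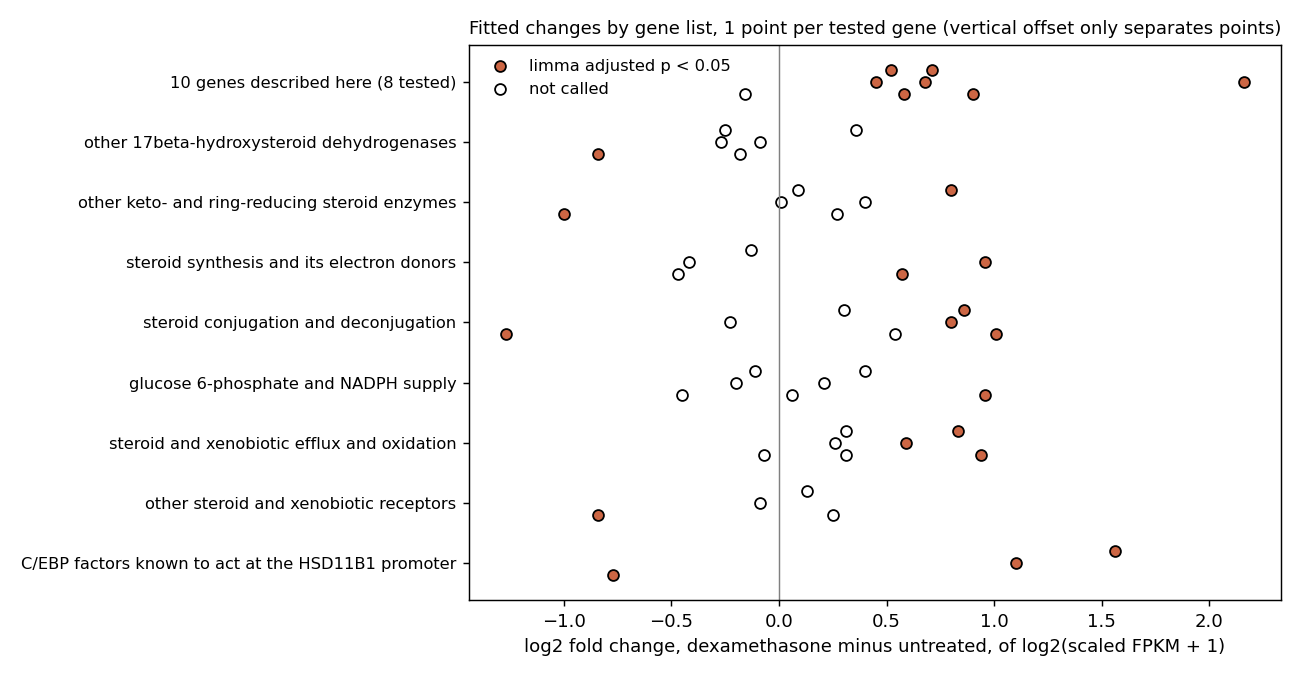
Fitted log2 fold change (horizontal axis, dexamethasone minus untreated, log2(scaled FPKM + 1) scale) of the 8 tested genes described above and of 45 related genes in 8 lists, 1 point per gene, filled where the limma adjusted p is under 0.05. The related lists hold calls on both sides of 0, from -1.27 for SULT2B1 to 1.56 for CEBPB.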

How the data were processed

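RNA was measured in 8 A549 libraries, 4 untreated and 4 treated with dexamethasone. Per the labels' protocols, ribosomal RNA was removed and random-primed cDNA was sequenced as paired ends. Per the submitters' processing notes, the authors used FastQC 0.11.9, Cutadapt 3.4, STAR 2.7.9a on GRCh38, featureCounts (Subread 2.0.3) and DESeq2 1.32.0. The annotation release, the use of strand, the treatment of shared reads and the step from counts to the deposited values are not given in the sources used here.

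The deposited values were read as FPKM, which was inferred: they are not whole numbers, their sums differ between libraries (338989 to 373855), and their sums times transcript length in kilobases (421794 to 440417 with median and 1014750 to 1106152 with longest transcripts) bracket the total that FPKM gives. Depth was estimated from single-transcript genes, where only 46.7% to 53.2% of low values came within 0.1 of whole fragments, so a test on counts could not be used.

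Libraries were scaled to each other by TMM factors (0.3 of the log ratios and 0.05 of the mean levels trimmed per side). The test was limma 3.58.1 (R 4.3.3) on log2(FPKM + 1) (trend and robust, group as the only term, two-sided), for genes with at least 0.5 FPKM in at least 4 libraries, or 3 where libraries were left out. The filter used FPKM before scaling between libraries. Genes below the filter had an exact permutation test (SciPy 1.17.1). Gene strand, overlaps, lengths and GC content came from GENCODE v44, in which 19065 of 19158 genes were found. Coordinates are those given with the values. Upstream windows came from RefSeq.

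The 10 genes, the lists and the tests were chosen with earlier results of these data known. Of each list, the called genes were to be named, up to 4 in each direction, and genes named beyond that were chosen after their values were seen, SUMF1, SLC37A4, AKR1C3, HSD17B10, PGR, CYP11A1, CYP11B1 and CYP11B2 among them. Other scalings, pseudocounts, filters, a GC correction, a replicate term and leaving out libraries were tried.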

Additional observations from a re-analysis of the deposited data

Results flagged for a closer look

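SRD5A3 in untreated replicate 4 was at 2.67 scaled FPKM, while the other 3 untreated libraries lay between 3.38 and 3.48, so that this sample stood far from the rest of its group. It was the only such value among 19 groups of 4 libraries examined for the 10 genes, and chance flags about 1 group in 20 at the 5% level used.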

How the results depend on the processing

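The count of genes called, 3251, became 5747 with a replicate block, 5371 with the GC trend removed and the replicate block, and 5514 without both libraries numbered 5, and it ranged from 2317 to 3846 when single libraries were left out. Of the 10 genes, 7 were called (26.7% of all genes tested), and 4 to 7 when single libraries were left out (18.9% to 31.3%). The count was 4 without dexamethasone replicate 3 (19.6%) or dexamethasone replicate 4 (18.9%). It was 6 with no scaling between libraries (27.0%) and 6 with the filter at FPKM 1 (26.2%). With the GC trend removed it was 7, of which 6 were higher and 1 lower (36.6%), and 8 with the replicate block added (44.3%). The replicate block alone left this count at 7. Related genes called numbered 17, and 26 with the replicate block (47.3% of all genes called), 27 without both libraries numbered 5 (45.1%) and 15 to 21 when single libraries were left out. The HSD11B1 share differed by 76.5 percentage points, by 75.8 to 77.9 without single libraries, and by 76.5 over same-numbered libraries (replicate block); since it is 0 in all untreated libraries, its tests in these smaller designs return the smallest p they allow and say nothing about stability. Replicate numbers were not taken as pairs: deviations from the group means correlated across genes at 0.292, 0.066, 0.315 and 0.713 for replicates 1, 3, 4 and 5. Between unlike numbers the correlation ranged from -0.572 (untreated 5 with dexamethasone 1) to 0.434 (untreated 3 with dexamethasone 1). NR3C2, with a log2 difference of -0.00406, changed sign to 0.00246 without untreated replicate 1 and to 0.000414 without dexamethasone replicate 4, within a range of -0.0132 to 0.00246 when single libraries were left out. Direction was kept for the other 9 genes in all alternatives run. Block and GC fits were not run for ABCB1 and NR3C2, nor a filter at FPKM 1 for these and HSD11B2, which are below it. Fewer libraries were tested in the fits that left one out, and the cause of the other changes was not tested.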

Other observations

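Of 26 related genes that were tested only in a limma fit without the filter, 4 were called, all higher, where 9.76% of all genes in that fit were called higher, and none of the 4 was above 0.379 scaled FPKM in any library. HSD3B1, which makes progesterone from pregnenolone, was at 0, 0.0218, 0.0209 and 0 scaled FPKM in untreated replicates 1, 3, 4 and 5 and at 0.133, 0.127, 0.196 and 0.286 after dexamethasone (adjusted p = 0.00592). AKR1D1, the 5β-reductase that inactivates cortisol in liver, had 0 in every untreated library and 0.0563 to 0.141 in the treated ones (adjusted p = 0.00767). UGT2B7, a glucuronosyltransferase, was at 0.0386 to 0.122 and 0.118 to 0.379 scaled FPKM, with overlap between groups (adjusted p = 0.0264), and SULT2A1, which sulfates dehydroepiandrosterone, was listed at 0 untreated and at 0.0278 to 0.0943 treated (adjusted p = 0.0434). The log2 fold changes of HSD3B1, AKR1D1, UGT2B7 and SULT2A1 were 0.23, 0.12, 0.24 and 0.07, at levels near the floor. For AKR1D1 and SULT2A1 the untreated values have no spread. All 4 genes were named after their values were seen.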
